A study of Mus musculus with 384 samples.

Results

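The stefin A genes Stfa1, Stfa2, Stfa3 and BC100530 were followed through single sorted cells of mouse back skin. The cells came from a Sca-1-negative gate and from a Sca-1-positive gate. The members were the rows of the expression table whose identifier ends in these symbols, 4 of 46609 rows. The family was chosen by mean TPM in Sca-1-negative cells, which for Stfa3 and BC100530 is higher in dKO than in cKO in these same data, so that difference is given as a description with no test.

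The dKO cells came from mice with the alleles NFIBfl/fl and NFIXfl/fl, and the cKO cells from mice with NFIBfl/+ and NFIXfl/fl. Both groups also carried Sox9-CreER, a tamoxifen-inducible Cre under Sox9 control, and R26-YFPfl/fl, a Cre-activated reporter. NFIX was thus floxed on both alleles in all cells, and the groups differed by their floxed NFIB alleles, 2 in dKO and 1 in cKO. No group without floxed alleles was analysed here. All cells were labelled male and postnatal day 70. They were sorted as DAPI-negative, integrin α6-positive and YFP-positive, with Sca-1 either negative or positive. Cd34 was not among the sorting markers, so the Sca-1-negative gate is not taken as bulge cells alone. Of 384 cells, 378 had at least 1000 genes at 1 TPM (transcript abundance per length, scaled to the same total in every cell) or more and were kept. The Sca-1-negative gate held 93 cells on dKO plate 1 and 61 on dKO plate 2, and 71, 47 and 65 cells on cKO plates 1, 2 and 3. The Sca-1-positive gate held 19 cells on dKO plate 2 and 22 on cKO plate 3. The labels tie no cell or plate to an animal, so a genotype is treated as 1 sample, plates are not taken as replicates, and no test between groups was made.

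Stefins A are small cytoplasmic inhibitors of cysteine proteases of the papain type, among them the cathepsins B, H and L. They block the active site with a short amino-terminal segment and hairpin loops, of which the first carries a conserved glutamine, valine and glycine motif. In human skin the counterpart cystatin A is a component of the cornified envelope, the protein shell of the outer epidermis. The mouse has a cluster of closely related copies, known from the myeloid lineage as well as from skin.

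On GRCm38 all 4 members are protein-coding genes of chromosome 16. Stfa1 lies at chr16:36276951-36285373 on the plus strand. BC100530, which RefSeq names Cstdc5, lies at chr16:36359382-36367748 on the minus strand. Stfa2 lies at chr16:36403992-36408457 and Stfa3 at chr16:36450537-36455392, both on the minus strand. The coding stretch around the first inhibitory hairpin shows how far the copies can be told apart by short reads. It is given 5′ to 3′ from the GENCODE transcripts, 63 bases each, with capitals at bases that differ from Stfa3.
Stfa3: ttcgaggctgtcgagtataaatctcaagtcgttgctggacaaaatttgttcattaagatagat
BC100530: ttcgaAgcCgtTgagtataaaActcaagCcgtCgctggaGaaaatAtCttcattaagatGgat
Stfa1: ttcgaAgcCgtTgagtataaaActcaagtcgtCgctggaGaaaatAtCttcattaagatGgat
Stfa2: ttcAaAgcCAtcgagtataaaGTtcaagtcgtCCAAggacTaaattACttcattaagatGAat
From Stfa3, BC100530 differed at 10 of these bases, Stfa1 at 9 and Stfa2 at 15. Over the whole coding sequence BC100530 and Stfa1 were 97.9% identical, and Stfa3 was 79.3% identical to BC100530, 79.6% to Stfa1 and 80.9% to Stfa2.

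The paired reads were 38 and 37 bases long. No stretch of 37 bases in the Stfa3 transcript occurred in a transcript of another gene of the annotation. Of such stretches 46.5% of BC100530, 36.2% of Stfa1 and 28.05% of Stfa2 occurred in another gene. BC100530 shared the largest part, 28.2%, with Stfa1, and Stfa1 shared 31.4% with BC100530. Exact matches alone were counted. The values of BC100530 and Stfa1 are therefore uncertain as single genes, since reads could be divided between them, while the Stfa3 value has no exact overlap with the other copies.

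Stfa3, the most abundant member, averaged 253.4 and 146.3 TPM on dKO plates 1 and 2, against 20.5, 58.3 and 21.9 TPM on cKO plates 1, 2 and 3, all in Sca-1-negative cells. Both dKO plates stood above all 3 cKO plates, also in mean log2(TPM + 1). The ratio of the genotype means, with plates weighted equally and 1 TPM added to each mean, was 5.82 (log2 2.54), and 9.06 without cKO plate 2. BC100530, the second most abundant, averaged 80.9 and 23.8 TPM on dKO plates 1 and 2, against 12.7, 7.38 and 3.33 TPM on cKO plates 1, 2 and 3. Its plates did not overlap either, and the ratio was 6.05 (log2 2.60), or 2.81 without dKO plate 1 and 9.29 without dKO plate 2. As a difference of mean log2(TPM + 1) the values were smaller, 1.07 for Stfa3 and 1.26 for BC100530. The 2 of 4 members with a plate average of 5 TPM or more were thus at least 2-fold higher in dKO cells with plates apart on both scales. The same held for 0.634% of the 7103 genes measured, 45 in number, where the 7103 include 43 ERCC spike-in rows. Since the members were proposed from this contrast, nothing is read from their count. Over all measured genes the median log2 ratio was -0.12.

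The remaining members were close to absent, and neither passed the filter of 5 TPM. Stfa1 was listed at 0 in all 93 cells of dKO plate 1 and averaged 0.197 TPM on dKO plate 2, against 4.23, 1.25 and 0.029 TPM on cKO plates 1, 2 and 3. The cKO plate 1 value came from 3 cells, the highest at 170.2 TPM, and the dKO plate 2 value from 1 cell at 12.03 TPM. Stfa1 was thus highest in a handful of cKO cells, with a sequence it partly shares with BC100530. Stfa2 averaged 0.944 and 0.314 TPM on dKO plates 1 and 2, from 4 and 3 cells with a highest value of 31.9 TPM, and was listed at 0 in all 205 cKO cells. No fold is given for it. With 0 positive cells in the cKO Sca-1-negative gate, the exact 95% binomial interval allows up to 2.00% of cells at 10 TPM or more.

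**Figure D1:**
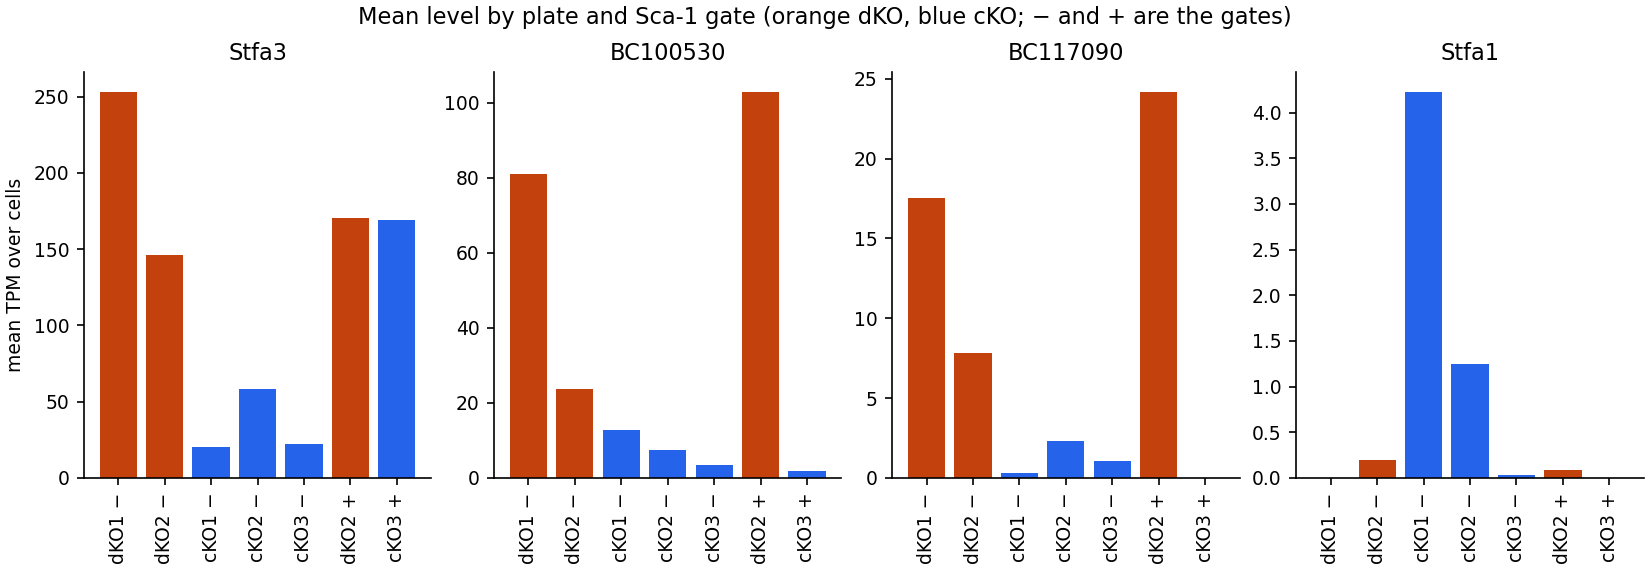
Mean TPM over the kept cells (vertical axis, starting at 0 and scaled to each gene) of Stfa3, BC100530, the neighbouring gene BC117090 and Stfa1, by plate and Sca-1 gate (orange dKO, blue cKO, minus and plus signs for the gates). In the Sca-1-negative gate the dKO bars of Stfa3, 253.4 and 146.3 TPM, stand above the cKO bars, of which the highest is 58.3 TPM, whereas Stfa1 is highest on cKO plate 1 at 4.23 TPM.

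Because the copies share reads, the 4 members were also summed in each cell. The sum averaged 335.2 and 170.6 TPM on dKO plates 1 and 2, against 37.4, 66.9 and 25.2 TPM on cKO plates 1, 2 and 3. The lowest dKO plate lay above the highest cKO plate, and the ratio was 5.75 (log2 2.52). Stfa3 made up 75.6% and 85.8% of the sum on the dKO plates and 54.6%, 87.1% and 86.7% on the cKO plates. The low share on cKO plate 1 went with 34.1% from BC100530 and 11.3% from Stfa1. Plates fell into those with Xist RNA (dKO 1, cKO 1 and 2) and those with Y-linked RNA (dKO 2, cKO 3), although all cells were labelled male. Each genotype thus held cells of more than 1 animal, but how many stood behind a plate is not given. The log2 ratio was 2.66 within the Xist plates and 2.71 within the Y plates.

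Stefin A RNA reached 10 TPM in a minority of cells on every plate. The median cell was at 0 TPM for the sum in each plate and gate. Cells at 10 TPM or more, called positive here, were 43.01% (exact 95% binomial interval 32.8 to 53.7) of dKO plate 1 and 32.8% (21.3 to 46) of dKO plate 2. They were 29.6% (19.3 to 41.6) of cKO plate 1, 25.5% (13.9 to 40.4) of cKO plate 2 and 18.5% (9.92 to 30.03) of cKO plate 3. The plate shares did not overlap between genotypes, but the intervals did. These intervals and the one above cover counting error only. The mean share was 13.4 percentage points higher in dKO, where the pooled SD between plates was 6.21 points, and 8.26 points higher without dKO plate 1.

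**Figure D2:**
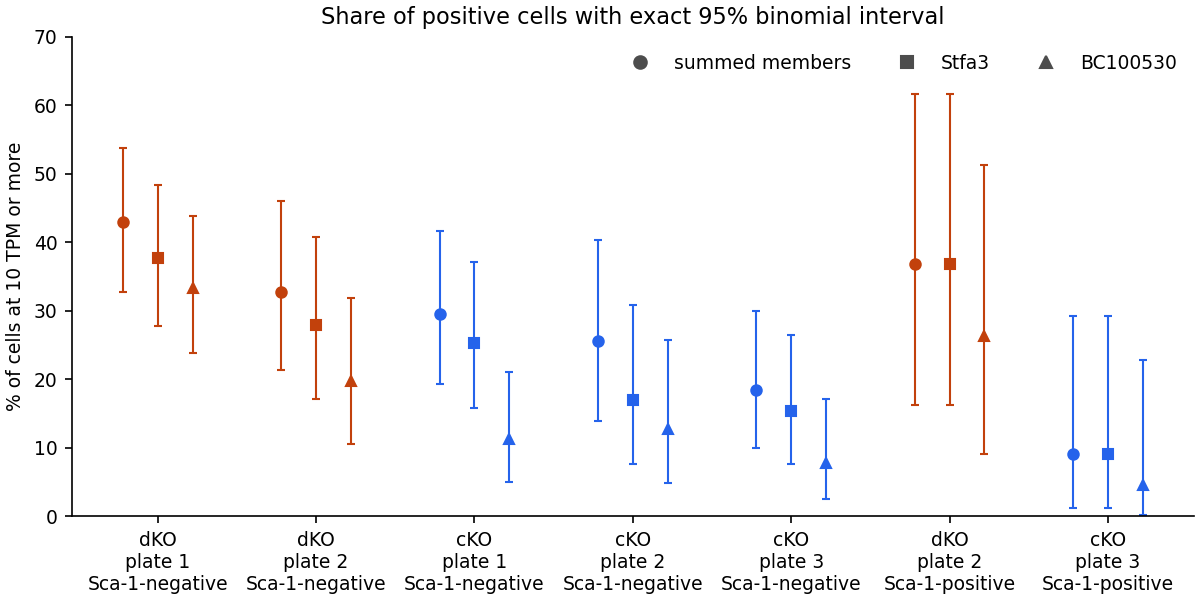
Percent of kept cells at 10 TPM or more (vertical axis) for the summed members, Stfa3 and BC100530, by plate and Sca-1 gate, with exact 95% binomial intervals as bars (orange dKO, blue cKO). In Sca-1-negative cells the summed share is 43.01% and 32.8% on the dKO plates and between 18.5% and 29.6% on the cKO plates, with overlapping intervals.

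The level in positive cells did not separate the genotypes by plate. Positive Sca-1-negative cells had a median sum of 259.5 and 74.2 TPM on dKO plates 1 and 2, against 56.8, 54.7 and 120.5 TPM on cKO plates 1, 2 and 3. The dKO value on plate 2 lay below that of cKO plate 3. Pooled over plates the medians were 200.02 TPM in dKO (60 cells, 38.96% of the gate, 40 of them on plate 1) and 67.5 TPM in cKO (45 cells, 24.6%). For Stfa3 alone the medians of positive cells were 171.4 and 60.4 TPM on dKO plates 1 and 2, against 56.5, 75.4 and 111.9 TPM on cKO plates 1, 2 and 3, so dKO plate 2 lay below cKO plates 2 and 3. For BC100530 they were 127.9 and 57.2 TPM on the dKO plates, against 90.04, 43.8 and 23.3 TPM on the cKO plates, overlapping as well. At or above 1000 TPM there were 9 and 2 cells on dKO plates 1 and 2, and 1 cell, on cKO plate 2, in cKO. A few cells held most of the RNA. The highest 5% of cells carried 56.5% and 86.7% of the summed TPM on dKO plates 1 and 2, and 65.04%, 87.2% and 57.95% on cKO plates 1, 2 and 3. The cKO plate 2 mean rested on 1 cell at 2193 TPM. With the highest cell of each plate left out, the sum averaged 268.2 and 106.1 TPM on the dKO plates, against 29.8, 20.7 and 20.6 TPM on the cKO plates, a log2 ratio of 2.93.

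**Figure D3:**
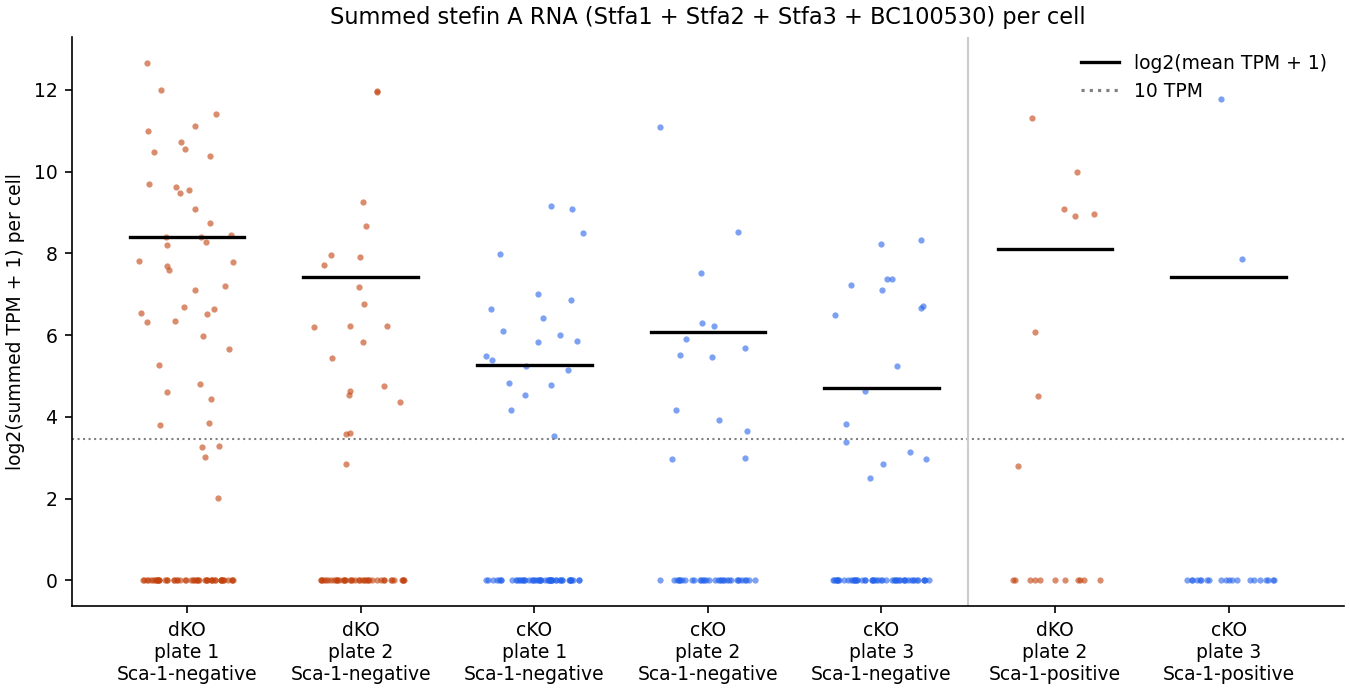
Log2(summed TPM + 1) of the 4 members in each kept cell (1 point per cell), by plate and Sca-1 gate (orange dKO, blue cKO), with log2(mean TPM + 1) as a black bar and 10 TPM as a dotted line. Most cells lie at 0, and the upper range of the Sca-1-negative gate, at 1000 TPM or more, holds 11 dKO cells and 1 cKO cell.

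The 4 highest cells were all dKO Sca-1-negative cells and differed in which copies they held. The first, on dKO plate 1, had 6471 TPM of Stfa3, 31.9 TPM of Stfa2 and no BC100530. The second, on the same plate, had 3746 TPM of Stfa3 and 353.4 TPM of BC100530, together with 1192 TPM of the wound keratin Krt16 and 2030 TPM of the suprabasal keratin Krt1. The third, on dKO plate 2, had 3951 TPM of Stfa3 with Krt1 at 0. The fourth, on that plate, had 3415 TPM of Stfa3, 537.9 TPM of BC100530 and 1100 TPM of Krt1. Cd34, a bulge marker, was at or below 1.34 TPM in all 15 of the highest cells. Some of these were Sca-1-positive cells, a gate where Cd34 averaged at most 0.362 TPM. Krt15, another bulge gene, ran from 0 to 272.3 TPM in the 15 cells. The share of other cells at this Cd34 level was not examined, so no lack of bulge identity is read from it.

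The cells with Stfa3 and with BC100530 overlapped. Of 97 Stfa3-positive cells in both gates, 52 (53.6%) were BC100530-positive, which was 76.5% of the 68 BC100530-positive cells. In dKO 40 cells were positive for both, 67.8% of Stfa3-positive and 83.3% of BC100530-positive cells. In cKO 12 cells were positive for both, 31.6% of Stfa3-positive and 60% of BC100530-positive cells. Whether these shares differ between genotypes was not tested. Over 378 cells, with log2(TPM + 1) centred within plate and gate, the 2 genes correlated with r = 0.65, a description over cells that share plates and depth. All 3 Stfa2-positive cells were Stfa3-positive, and 4 of 5 Stfa1-positive cells were BC100530-positive.

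**Figure D4:**
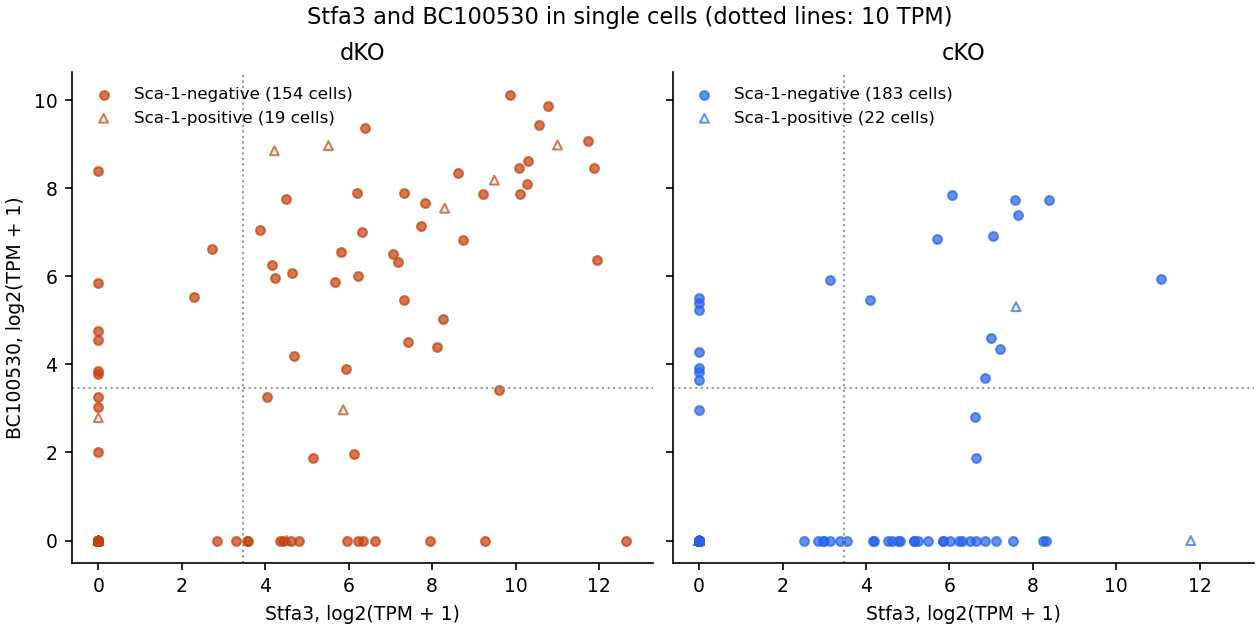
BC100530 against Stfa3, both as log2(TPM + 1), in single dKO cells (left) and cKO cells (right); filled circles are Sca-1-negative and open triangles Sca-1-positive cells, and dotted lines mark 10 TPM. The upper right field holds 40 dKO cells and 12 cKO cells.

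In Sca-1-positive cells the members did not follow one pattern. Stfa3 averaged 170.2 TPM in dKO (7 of 19 cells positive, 36.8%) and 168.96 TPM in cKO (2 of 22 cells, 9.09%). The cKO value came from 1 cell at 3525 TPM, without which the mean was 9.16 TPM, while dKO without its highest cell had 65.3 TPM. BC100530 averaged 102.9 TPM in dKO (5 of 19 cells) and 1.76 TPM in cKO (1 of 22 cells), a log2 ratio of 5.24. In this gate 7.4% of 5915 genes stood 2-fold or more above cKO in dKO cells, and BC100530 was the 1 member past that size. The sum averaged 273.2 TPM in dKO (36.8% positive, exact interval 16.3 to 61.6) and 170.7 TPM in cKO (9.09%, 1.12 to 29.2). Its log2 ratio of 0.68 became 3.61 with the highest cell of each group left out.

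Between the gates of 1 plate, BC100530 averaged 102.9 TPM in Sca-1-positive and 23.8 TPM in Sca-1-negative cells of dKO plate 2, a log2 ratio of 2.07. On cKO plate 3 it averaged 1.76 TPM in Sca-1-positive and 3.33 TPM in Sca-1-negative cells, a log2 ratio of -0.65. On dKO plate 2, where 6.14% of 6576 genes were at least 2-fold higher in the Sca-1-positive gate, BC100530 was past that size, and Stfa3 was not, at 170.2 TPM in Sca-1-positive and 146.3 TPM in Sca-1-negative cells. On cKO plate 3, where 5.9% of 6683 genes were, Stfa3 was past it, at 168.96 TPM in Sca-1-positive and 21.9 TPM in Sca-1-negative cells, through the 1 cell named above. The summed members gave log2 ratios between gates of 0.68 on dKO plate 2 and 2.71 on cKO plate 3; leaving out the highest cell of each gate turned the cKO value to -0.85. Of the markers, Ly6a and Cd34 set the gates apart, whereas the bulge keratin Krt15 did not. Krt15 averaged 421.1 TPM in Sca-1-positive and 284.1 TPM in Sca-1-negative cells of dKO plate 2. On cKO plate 3 it averaged 436.0 TPM in Sca-1-positive and 440.3 TPM in Sca-1-negative cells. Ly6a, which encodes Sca-1, averaged 124.6 and 68.4 TPM in Sca-1-positive cells of dKO plate 2 and cKO plate 3 and 19.7 to 47.6 TPM in Sca-1-negative cells, and Cd34 averaged at most 0.362 TPM in Sca-1-positive and 26.1 to 99.8 TPM in Sca-1-negative cells.

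Of the other genes of the stefin A family, 8 were in the table. BC117090, which RefSeq names Cstdc6, averaged 17.5 and 7.81 TPM on dKO plates 1 and 2, against 0.306, 2.28 and 1.07 TPM on cKO plates 1, 2 and 3, a log2 ratio of 2.62 in Sca-1-negative cells. In Sca-1-positive cells it averaged 24.2 TPM in dKO and was listed at 0 in cKO. Its coding sequence was 95.2% identical to that of BC100530, it shared 35.04% of its 37-base stretches with it, and 32 of its 34 positive cells were BC100530-positive, so the 2 values may rest in part on the same reads. Stfa2l1, Gm5483, Gm5416, Gm4758 and Gm5689 were listed at 0 in every kept cell. 2010005H15Rik was above 0 in 1 cell, at 2.35 TPM, and Csta1 averaged at most 0.801 TPM in any plate and gate. With all of these added, the log2 ratio of the sum was 2.55.

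Stfa3 is shown with its promoter, since it carried most of the sum and, with BC100530, stood higher in dKO cells. The 250 bases before its RefSeq start, GRCm38.p6 chr16:36455393-36455642 on the minus strand, are given 5′ to 3′ with TTTAAA and TTGGC in capitals.
Stfa3 promoter: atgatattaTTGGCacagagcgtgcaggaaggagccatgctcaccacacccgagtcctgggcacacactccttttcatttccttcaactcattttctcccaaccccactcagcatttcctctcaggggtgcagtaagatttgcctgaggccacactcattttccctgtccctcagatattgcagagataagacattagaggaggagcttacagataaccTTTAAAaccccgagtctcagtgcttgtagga
The motif TTTAAA, which resembles a TATA box, began 31 bases before the start of Stfa3. It was present in the windows of all 4 members, 30, 29 and 9 bases before the RefSeq starts of Stfa1, Stfa2 and BC100530. Of 32851 RefSeq promoter windows of the same length, 12.1% held it on either strand. The NFI half-site TTGGC was found 1 time in each member and in 41.5% of all windows. The full palindromic NFI motif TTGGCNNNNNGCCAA and the AP-1 motif TGANTCA were found in none of the 4 windows, and in 0.0365% and 6.75% of all windows. These are matches of letters and not binding sites. The window of Stfa3 was 83.1% identical to that of Stfa1, 80.2% to that of Stfa2 and 71.8% to that of BC100530.

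The genes whose level followed the summed stefins most closely were sought over 378 cells, by Pearson correlation of log2(TPM + 1) centred within plate and gate. The 7100 genes compared include 43 ERCC spike-in rows. The highest were Ptgs1 (r = 0.54), the cyclooxygenase COX-1, Egln3 (0.50), a prolyl hydroxylase of the hypoxia response, and Tnfrsf19 (0.49), the receptor TROY. Next came Ctsc (0.48), the cysteine protease cathepsin C, and Pglyrp4 (0.47), a peptidoglycan recognition protein. Tmem45a (0.46), Clca3a2 (0.46), Fam162a (0.45), the proteoglycan Gpc1 (0.44) and the cytokine receptor chain Il2rg (0.44) completed the 10. Across all genes the median r was 0.04, with 95% of genes between -0.23 and 0.26. Ptgs1 ranged from 0.20 to 0.74 between plates of the Sca-1-negative gate, and Ctsc from 0.44 to 0.55. In Sca-1-positive cells of dKO and cKO, Ptgs1 was at 0.42 and 0.51, Ctsc at 0.54 and -0.02, and Tnfrsf19 at -0.06 and -0.09. The sum was above 0 in 8 of 19 dKO and 2 of 22 cKO cells of this gate, so these cKO values rest on 2 cells.

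At the low end, among genes named after their values were seen, stood Sema3e (r = -0.48), Tbx1 (-0.45), Timp2 (-0.45), Nfib (-0.42), Nfatc1 (-0.41) and Postn (-0.41). Nfatc1, a transcription factor of quiescent bulge stem cells, and Postn were on the list of bulge genes. Cd34 (-0.34), Lhx2 (-0.38) and Krt15 (-0.30) were below 0 as well, and the 8 measured bulge genes had a median r of -0.32. Nfib was negative on each Sca-1-negative plate, at -0.61 and -0.57 on dKO plates 1 and 2, and -0.46, -0.46 and -0.31 on cKO plates 1, 2 and 3. In Sca-1-positive cells (19 dKO and 22 cKO) most of these values were above 0. The stefin sum was above 0 in 8 of the dKO cells and 2 of the cKO cells, and Cd34 averaged at most 0.362 TPM. No change of sign is read from so few cells of this gate. There Nfib was at 0.22 in dKO and 0.06 in cKO, Nfatc1 at 0.12 and 0.20, Postn at 0.42 and 0.16, and Cd34 at 0.26 and 0.23. Timp2 was at 0.16 and -0.08, and Krt15 stayed negative, at -0.72 and -0.18. Sema3e was at 0.04 in dKO with no value in cKO, and Tbx1 and Lhx2 had no value in either. Several ERCC spike-in rows stood at the low end too. The stefin sum correlated with the ERCC share at -0.61 and -0.53 on the dKO plates and at -0.49, -0.59 and -0.44 on the cKO plates, where a higher ERCC share means less RNA from the cell itself; its part in these correlations was not tested beyond the adjustment that follows. With the ERCC share and the number of genes detected regressed out, 6 of the same 10 genes remained in the highest 10, Ptgs1 at 0.43, and Nfib was at -0.25. Correlations over these cells share plate, depth and TPM scaling and are given with no p.

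**Figure D5:**
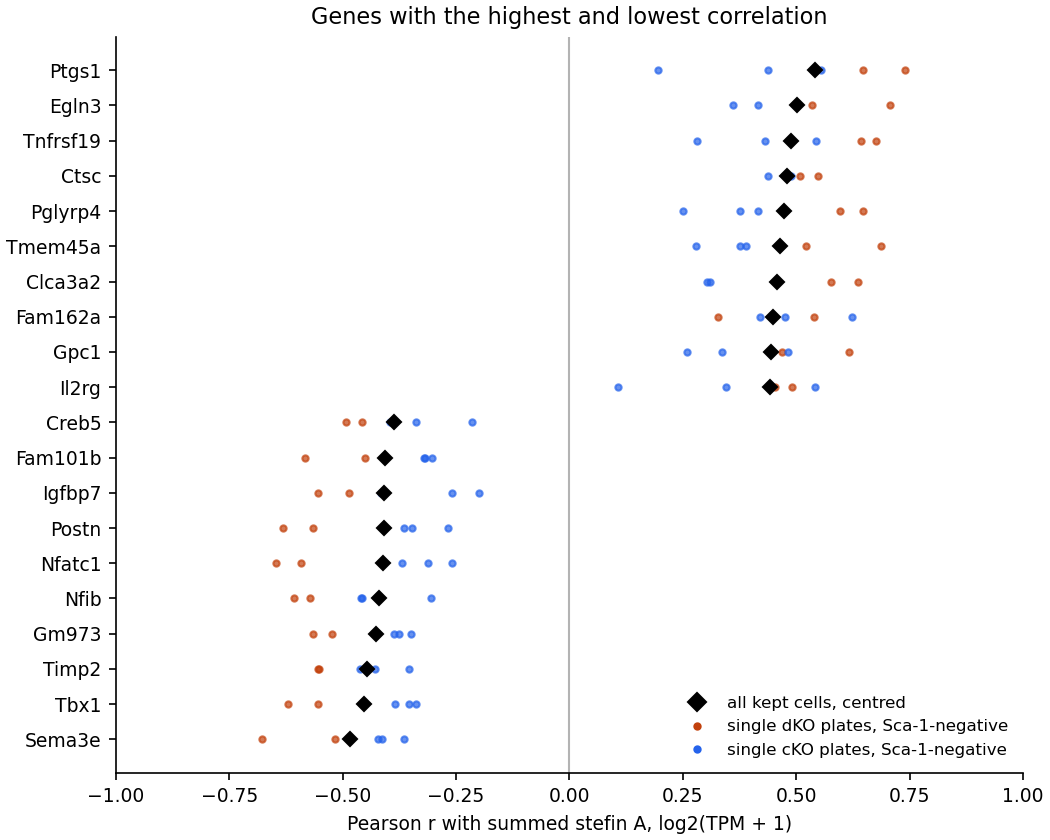
Pearson r between log2(TPM + 1) of a gene and of the summed stefins: black diamonds over all 378 kept cells centred within plate and gate, small points in single Sca-1-negative plates (orange dKO, blue cKO), for the 10 highest genes and the 10 lowest without ERCC rows. Ptgs1 is highest at 0.54 and Sema3e lowest at -0.48.

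Cathepsins and legumain, which include the cysteine proteases that stefins inhibit, did not pass the size rule between genotypes. Of 7 measured, the serine-type Ctsa among them, 0 were 1.5-fold higher or lower with plates apart, and their median log2 ratio was 0.10, beside -0.12 for all genes. Cathepsin H (Ctsh) averaged 60.1 TPM in dKO and 55.9 TPM in cKO cells, and cathepsin B (Ctsb) 47.2 TPM in dKO and 39.5 TPM in cKO cells. Cathepsin C (Ctsc), first in the correlation above among them, averaged 16.8 TPM in dKO and 14.2 TPM in cKO cells. At this size 1.76% of measured genes were higher and 3.96% lower in dKO. Differences below this size were not assessed.

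Inhibitors outside the cluster were also examined. Of 3 measured cystatins outside the cluster, 0 passed in either direction, with a median log2 ratio of -0.18. Cst3, cystatin C, averaged 112.2 TPM in dKO and 168.8 TPM in cKO cells, and Cstb, stefin B, 46.3 TPM in dKO and 52.7 TPM in cKO cells. The plates of Cst3 did not overlap, and its 1.4994-fold lower level fell just short of the size. The third, Cst6, had 3.87 and 48.9 TPM on dKO plates 1 and 2, against 1.57, 2.24 and 20.8 TPM on cKO plates 1, 2 and 3; its ratio was 2.97, with overlapping plates. Of 7 other skin protease inhibitors 0 passed in either direction, with a median of -0.19. The serpin Serpinb5 averaged 85.8 TPM in dKO and 101.5 TPM in cKO cells, and the Kunitz-type inhibitor Spint2 52.3 TPM in dKO and 45.96 TPM in cKO cells.

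Among 13 measured cornified envelope and suprabasal genes, 2 were higher, 1 was lower and 10 did not pass, with a median log2 ratio of 0.09. The epidermal cytochrome Cyp2b19 averaged 34.8 TPM in dKO and 7.06 TPM in cKO cells, 4.45-fold higher. It had 10.55 and 59.14 TPM on dKO plates 1 and 2, against 3.20, 7.84 and 10.14 TPM on cKO plates 1, 2 and 3. The size of its ratio thus came mainly from dKO plate 2, and dKO plate 1 stood barely above cKO plate 3. Krtdap, a keratinocyte differentiation gene, averaged 183.9 TPM in dKO and 69.9 TPM in cKO cells, 2.61-fold higher. The transglutaminase Tgm5 averaged 10.003 TPM in dKO and 43.9 TPM in cKO cells. Over single cells the r of the 13 genes with the stefins ran from -0.33 for Calml3 and -0.28 for Tgm5 to 0.33 for Lgals7 and 0.42 for Calm4, with a median of 0.21, and was 0.13 for Cyp2b19 and 0.05 for Krtdap. Of 6 measured wound and inflammation genes, 1 was higher, the keratin Krt17, at 813.8 TPM in dKO and 442.7 TPM in cKO cells. Krt16 had 27.5 and 16.2 TPM on the dKO plates and 1.55, 1.12 and 4.03 TPM on the cKO plates, but its plates overlapped in mean log2(TPM + 1); its r with the stefins was 0.42. The neutrophil alarmin S100a8 was positive in 5 of 378 cells.

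Of 8 measured bulge genes, Cd200 was higher, at 42.6 TPM in dKO and 25.3 TPM in cKO cells, and the bulge keratin Krt15 was lower, at 232.8 TPM in dKO and 565.9 TPM in cKO cells. The other 6 did not pass. Cd34 was 1.99-fold lower, at 26.1 and 48.4 TPM on dKO plates 1 and 2, against 99.8, 81.5 and 44.3 TPM on cKO plates 1, 2 and 3, which overlap. Sox9 was 1.39-fold lower with plates apart, short of the size. Whether the mix of cells in the gate differed between genotypes was not tested. Of 8 measured upper follicle genes, Lgr6 was lower, at 7.53 TPM in dKO and 18.7 TPM in cKO cells, and the other 7 did not pass. Of the 4 NFI genes 0 passed. Nfix averaged 29.6 and 32.3 TPM on dKO plates 1 and 2. On cKO plates 1, 2 and 3 it averaged 46.7, 47.96 and 43.7 TPM. The plates of Nfix did not overlap, and its 1.475-fold lower level in dKO fell just short of the 1.5-fold size. Nfib, the gene whose floxed alleles differ between the groups, averaged 58.4 and 90.4 TPM on dKO plates 1 and 2, against 80.4, 72.8 and 67.1 TPM on cKO plates 1, 2 and 3. Its gene-level TPM does not separate the genotypes, and the part of the gene between the loxP sites is not given in the labels.

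Since stefin A genes are also known from neutrophils, 23 neutrophil and immune markers were examined beside them. Elane, Ltf, Ly6g, Lyz2, Mmp8, Mpo and Retnlg were listed at 0 in every kept cell, and Ptprc, the pan-leukocyte marker CD45, reached at most 1.08 TPM. Only Cd74, Il1r2 and Coro1a averaged 1 TPM or more. The list summed to 13.04 and 8.89 TPM on dKO plates 1 and 2 and 30.9, 39.2 and 12.6 TPM on cKO plates 1, 2 and 3, with dKO plate 1 above cKO plate 3. Cd74 made up most of this on each plate but dKO plate 2; without it the list summed to 4.83 and 4.605 TPM on the dKO plates and 3.87, 14.4 and 4.23 TPM on the cKO plates, both dKO plates above cKO plates 1 and 3. Cd74, the 1 marker of the list with a plate average of 5 TPM or more, had r = 0.26 with the stefins. In Sca-1-positive cells the whole list summed to 31.1 TPM in dKO and 61.3 TPM in cKO. Of this, Il1r2 gave 28.7 TPM in dKO and 32.2 TPM in cKO, and Cd74 gave 1.42 TPM in dKO and 24.4 TPM in cKO. At least 3 markers were positive in 2 cells, of which 0 were stefin-positive. Of the stefin-positive cells, 77 (67.5%) were positive for none of the list. The matching share of stefin-negative cells was not examined, so no lack of immune RNA in stefin-positive cells is read from this. Of those 2 cells, 1 lay in the Sca-1-negative gate, on cKO plate 2, and 1 in the Sca-1-positive gate, on cKO plate 3. Without them, the log2 ratio of the summed stefins was 2.51, dKO over cKO in Sca-1-negative cells. As neither cell was stefin-positive, leaving them out could hardly change this ratio, and it does not show what part immune cells had. Cells with fewer markers were kept in that value.

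Sca-1-negative cells had a median of 5234 and 5227 genes detected on dKO plates 1 and 2, against 4846, 5000 and 5079 on cKO plates 1, 2 and 3. ERCC rows took 3.48% and 3.75% of TPM on the dKO plates and 4.95%, 4.98% and 3.72% on the cKO plates. Scaled to the ERCC rows of each cell instead of to the TPM total, the log2 ratio of the summed stefins was 2.68. Within dKO plate 1, positive cells were 15 of 47 in well rows A to D and 25 of 46 in rows E to H, while the mean was higher in rows A to D, at 476.4 TPM against 190.9 TPM. The part of well position in the levels was not tested.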

How the data were processed

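Single cells were sorted into 96-well plates and sequenced by Smart-seq2 with Nextera XT libraries, per the labels' protocols; the method is unstranded and without molecular identifiers. The authors deposited TPM values for 46609 rows, 92 of them ERCC spike-ins; the submitters' processing notes name Bowtie2 2.2.9, RSEM 1.2.30 and mm10 (GRCm38). Which annotation release they used was not given in the sources. Reads shared by copies are divided by RSEM's model. TPM keeps no read depth, so the total count per cell is unknown. One ribosomal row (Rn18s-rs5) took between 55.3% and 61.5% of the TPM by plate and gate. Doublets were not called in these singly sorted cells, and 0 pairs of cells were identical.

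Groups came from the genotype and sorting labels, plates and wells from the titles, where the number was read as a plate. Plate means of TPM were averaged with equal weight, and ratios add 1 TPM to each mean, so low genes' differences are understated. Measured genes are those with a plate average of 5 TPM or more, and ERCC rows past this filter are counted among them. A call needed a ratio of 2 (1.5 in lists) and no overlap of plates in mean TPM and mean log2(TPM + 1). Comparisons with 1 plate a group used the ratio alone. Calls are sizes, not tests. Named were the members, their cluster, up to 4 members of each list past the rule (otherwise the 2 with the highest TPM), and the 10 genes with the highest correlation; other genes were named after their values were seen. Members and lists were chosen with earlier results of these data known. The ratio and correlation steps were tested on simulated data.

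Sequences and shared 37-base stretches came from GENCODE M21 transcripts, promoters from RefSeq (GRCm38.p6), where all 4 members matched, BC100530 by accession; RefSeq and GENCODE starts differ for Stfa1, Stfa2 and BC100530, so their windows overlap their GENCODE models and are not printed. Alternatives were other pseudocounts, cell filters, positivity thresholds, scaling, trimming, pooling, log means and leaving out plates. Python 3.11.15, pandas 2.3.3, numpy 2.4.6, scipy 1.17.1 and Biopython 1.88 were used.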

Additional observations from a re-analysis of the deposited data

Results flagged for a closer look

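BC100530 was flagged because its ratio between the gates had opposite signs in the genotypes. Its log2 ratio, Sca-1-positive over Sca-1-negative, was 2.07 on dKO plate 2 (102.9 TPM in Sca-1-positive and 23.8 TPM in Sca-1-negative cells) and -0.65 on cKO plate 3 (1.76 TPM in Sca-1-positive and 3.33 TPM in Sca-1-negative cells). Each value comes from 1 plate, the cKO Sca-1-positive value from 1 cell at 38.7 TPM, and the difference was not tested. Both cKO means lie below the filter of 5 TPM, so no direction is read for cKO.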

How the results depend on the processing

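The higher summed stefin A level of dKO Sca-1-negative cells (log2 2.52) kept its direction under all 19 alternatives, from 1.26 as a difference of mean log2(TPM + 1) to 2.97, and between 1.96 and 2.97 when 1 plate was left out. The difference in the share of positive cells, 13.4 points, ran from 8.26 to 18.5 points over the plates left out. In Sca-1-positive cells the log2 ratio of 0.68, dKO over cKO, became 7.20 without the highest 5% of cells, 3.61 without the highest cell of each group and 1.93 scaled to ERCC. The gate ratio of cKO plate 3 (2.71) reversed to -3.62 without the highest 5% and to -0.85 without the highest cell, so it rests on 1 cell, and that of dKO plate 2 (0.68) became 2.54 without the highest 5%. Scaling to ERCC, leaving out the highest cell and adjusting the correlations for ERCC share and gene number were chosen after seeing the data. Stfa3 (2.54) and BC100530 (2.60) kept their direction under 18 of 18 alternatives each, but became 1.07 and 1.26 as a difference of mean log2(TPM + 1); with 1 plate left out they ran from 2.09 to 3.18 and from 1.49 to 3.21, and BC100530 was 3.41 without the highest 5% of cells. Stfa1 (-1.37, dKO over cKO) reversed to 0.22 on the plates with Y-linked RNA alone; at its level of a few cells no direction is read. No paired analysis was possible because the results come from no test and the plate numbers mark no shared animal or day; the log2 ratio of the sum was 2.66 on the plates with Xist RNA and 2.71 on those with Y-linked RNA.

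Each genotype was treated as 1 sample, since no animal is tied to a plate, read depth is unknown, and the Sca-1-positive gate holds 19 dKO and 22 cKO cells, so single cells set its means.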
